A study of Mus musculus with 84 samples.

Results

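In experimental autoimmune encephalomyelitis (EAE), mice are immunized against a myelin antigen and develop an ascending paralysis with inflammatory lesions, many of them in the spinal cord. The comparison described here asked whether astrocytes of the spinal cord and of the hindbrain changed differently at peak disease. It is a difference of changes, in which the log2 fold change from control to peak EAE in hindbrain was subtracted from that in spinal cord. A positive value therefore means a larger rise or a smaller fall in spinal cord. The comparison rests on 22 of the 84 RNA libraries of the series, namely 5 control and 6 peak libraries of hindbrain and 5 control and 6 peak libraries of spinal cord. Of the 23324 genes tested, 1848 had a response that differed between the regions.

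All 4 groups came from C57BL/6J mice. Those of the peak groups, E4, were females immunized at 10 weeks of age with the MOG35-55 peptide in complete Freund's adjuvant, given pertussis toxin and taken at an EAE score of 4, which is complete paralysis of the hind legs. Mice of the control groups, C, were unimmunized, so that antigen, adjuvant and toxin differ together between E4 and C. No transgene was used and the age of the control mice is not given in the sources used here. Hindbrain comprised cerebellum and brain stem, and spinal cord its cervical and thoracic parts. From each, living cells without CD11B and CD45, surface proteins of myeloid cells and of leukocytes, were sorted as ACSA-2-positive and GLAST-negative. A library holds pooled RNA of at most 2 mice, and the labels do not say which libraries of the 2 regions come from the same mice. Bracketed numbers in the titles, whose meaning is not given, are shared by 5 pairs of a hindbrain and a spinal cord library.

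Astrocytes take up glutamate and GABA at synapses, exchange water and potassium, and pass ions and metabolites to each other through connexins. Their endfeet cover blood vessels, to which they send signals. In inflamed tissue they respond to interferons, tumour necrosis factor and interleukins with antigen presentation genes, complement, chemokines and intermediate filaments, a state called reactive. ACSA-2 is an epitope of the sodium pump subunit encoded by *Atp1b2*, and GLAST is the glutamate transporter encoded by *Slc1a3*.

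The isolates were first checked against markers. The summed expression of 8 defining astrocyte markers, in counts per 1000000 counts (CPM), was 19605 to 25036 in control hindbrain, 20734 to 24876 in E4 hindbrain and 12788 to 18186 in control spinal cord. In E4 spinal cord it was 2308 to 3816, below every other library, so the astrocyte label fits those 6 libraries least and they are called ACSA-2-positive, GLAST-negative isolates here. In bulk RNA, fewer cells of a type and less RNA per cell cannot be told apart. The summed expression of 10 oligodendrocyte markers was 1470.4 to 5103 CPM in control hindbrain, 2483 to 11383 in E4 hindbrain, 14358 to 41875 in control spinal cord and 30361 to 77684 in E4 spinal cord. All 10 oligodendrocyte markers averaged at least 5 CPM in each group, none was at 0 throughout a group, and for none was the difference of changes called. The 20 myeloid markers summed to 52.3 to 124 CPM in control hindbrain, 198 to 878 in E4 hindbrain and 14.4 to 63 in control spinal cord, where *Lyz2* and *Ms4a7* were at 0. In E4 spinal cord they summed to 5703 in replicate 2 and to between 162 and 397 in the other 5 libraries, and B cell and neutrophil markers also reached their highest sum, 536, in replicate 2. Without that library 1625 of the 1848 calls described below were kept. Only the named genes among the lost calls are listed, with both values, where myeloid genes are described. The part of these other cell types in the results below was not tested.

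The labels also carry a sheet number, whose meaning they do not give. It was at most 56 in all 11 hindbrain libraries, at least 57 in all 5 control spinal cord libraries, and at least 57 in only replicate 3 of the 6 E4 spinal cord libraries, so sheet number and stage nearly coincide in spinal cord. That replicate had the lowest astrocyte marker sum of all, 2308 CPM. However, *S100b*, the defining marker whose response did not differ (below), makes up much of each sum in E4 spinal cord. The sums therefore do not order these libraries by the other defining markers, and they understate how far those markers fell. Libraries held between 1554784 and 4895220 counts, and 3 counts, the floor used for detection, corresponded to between 0.682 and 2.00 CPM. Floors of this kind cover counting error only, because the reads carry no molecular identifiers. Mitochondrial transcripts summed to 113578 to 139139 CPM in control hindbrain, 82280 to 141323 in E4 hindbrain, 105605 to 139509 in control spinal cord and 64251 to 89838 in E4 spinal cord.

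**Figure D1:**
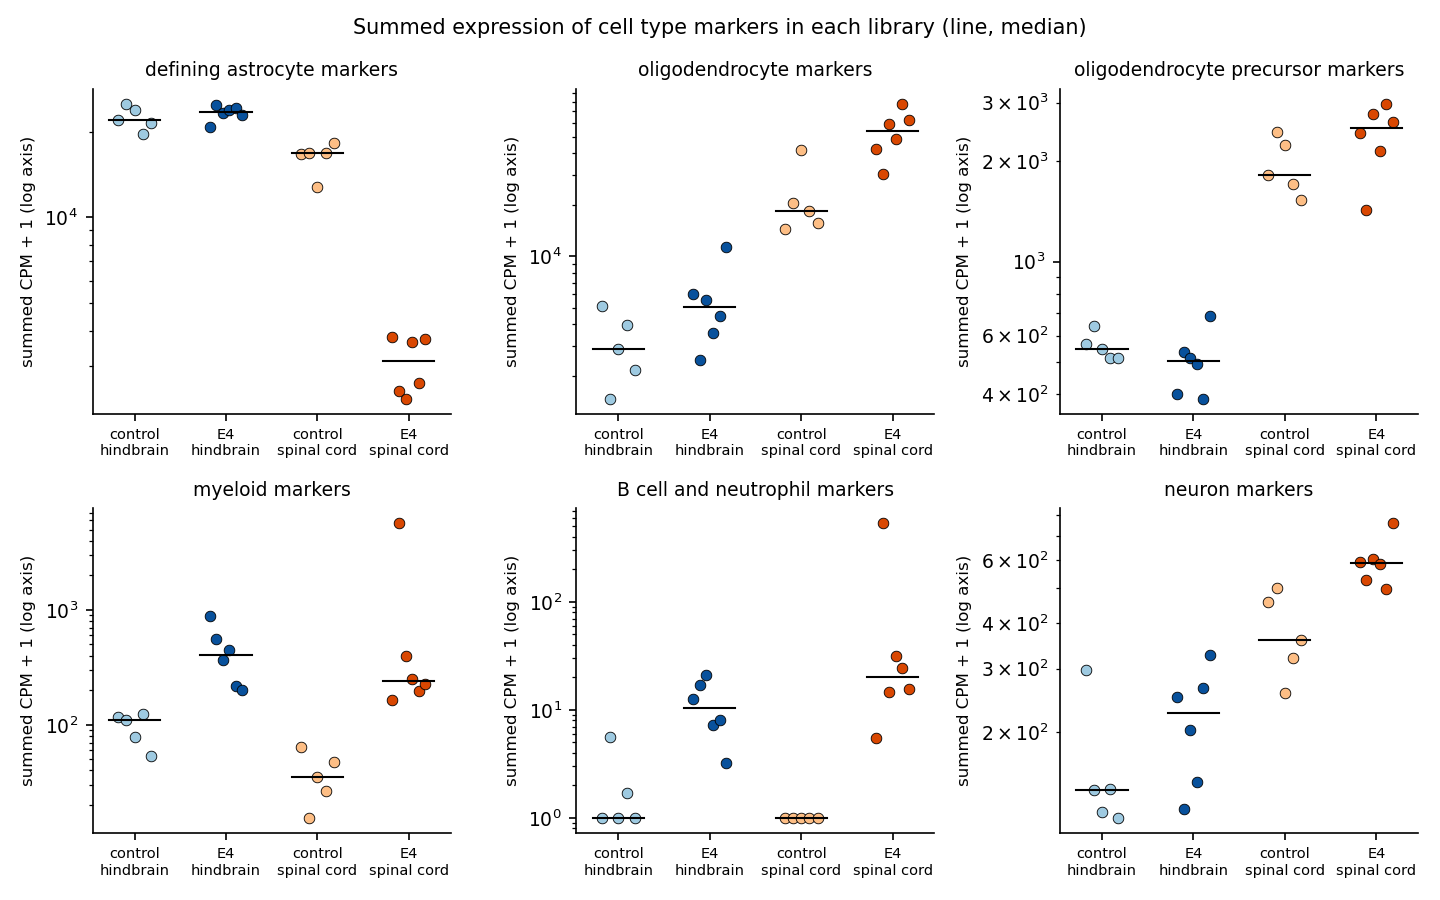
Summed CPM + 1 of the marker genes of 6 cell types (log axis) in each of the 22 libraries, by group. Points are libraries and lines are group medians. Astrocyte marker sums of E4 spinal cord, 2308 to 3816, lie below all others, and 1 library of E4 spinal cord stands apart for myeloid and for B cell and neutrophil markers.

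A response was said to differ, or a gene to have risen or fallen, at an adjusted p under 0.05 (edgeR's two-sided quasi-likelihood test, Benjamini-Hochberg adjustment over the 23324 genes) and a log2 value above 1 or below -1. The difference of changes was called in the positive direction for 448 genes, 1.92% of those tested, and in the negative direction for 1400, 6.00%. Spinal cord itself responded with 1586 genes that rose (6.80%) and 2598 that fell (11.1%). Hindbrain responded with 165 genes that rose (0.707%) and 5 that fell (0.0214%). Among the 448 genes with a positive difference, 346 rose in spinal cord, 8 of which rose in hindbrain too, and for 100 neither response alone was called. Among the 1400 with a negative difference, 1322 fell in spinal cord, 11 rose in hindbrain, and for 70 neither response was called. The control groups of the 2 regions were not called different for 406 of the 448 (90.6%) and for 1243 of the 1400 (88.8%). Over all genes tested they were called different for 979 (4.20%), a smaller share than in either set. Protein-coding genes made up 394 of the 448 and 1196 of the 1400. For 843 of the 1848 the estimates in the regions had opposite signs. Of these, 607 had a negative estimate in spinal cord and a positive one in hindbrain. Hindbrain estimates centred near 0, with medians of -0.026 over the positive and -0.079 over the negative set, so most of their signs are uncertain. Selection on the difference also favours opposite signs, so these 2 counts are not read as a result. The median difference over all genes was -0.042, against 1.47 and -3.04 over those called in each direction.

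With the sheet number class as a term in the fit, 89 genes were called positive and 698 negative, and 763 of the 1848 calls were kept. Of the 157 named genes called, 64 lost the call and none changed sign. With only spinal cord libraries of sheet numbers from 57, which leaves 1 E4 spinal cord library that is assumed to vary like the others, the counts were 73 and 631, and without E4 spinal cord replicate 2 they were 369 and 1438. Under upper-quartile scaling, which moved the median difference of all genes to 0.053, they were 905 and 1180, a share of positive calls of 43.4% against 24.2%, so the balance of the directions depended on scaling. With the bracketed number as a random block 2351 genes were called and 1603 of the 1848 calls were kept. With the libraries of the 5 shared numbers alone 2016 were called and 1283 kept. Under limma-voom 1684 were called and 1388 kept. The 44 named genes that lost the call there included *Slc1a3*, *Sparcl1*, *Gfap*, *Mt2*, *B2m*, *C4b*, *Rsad2* and *Actb*, and no named gene changed sign.

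**Figure D2:**
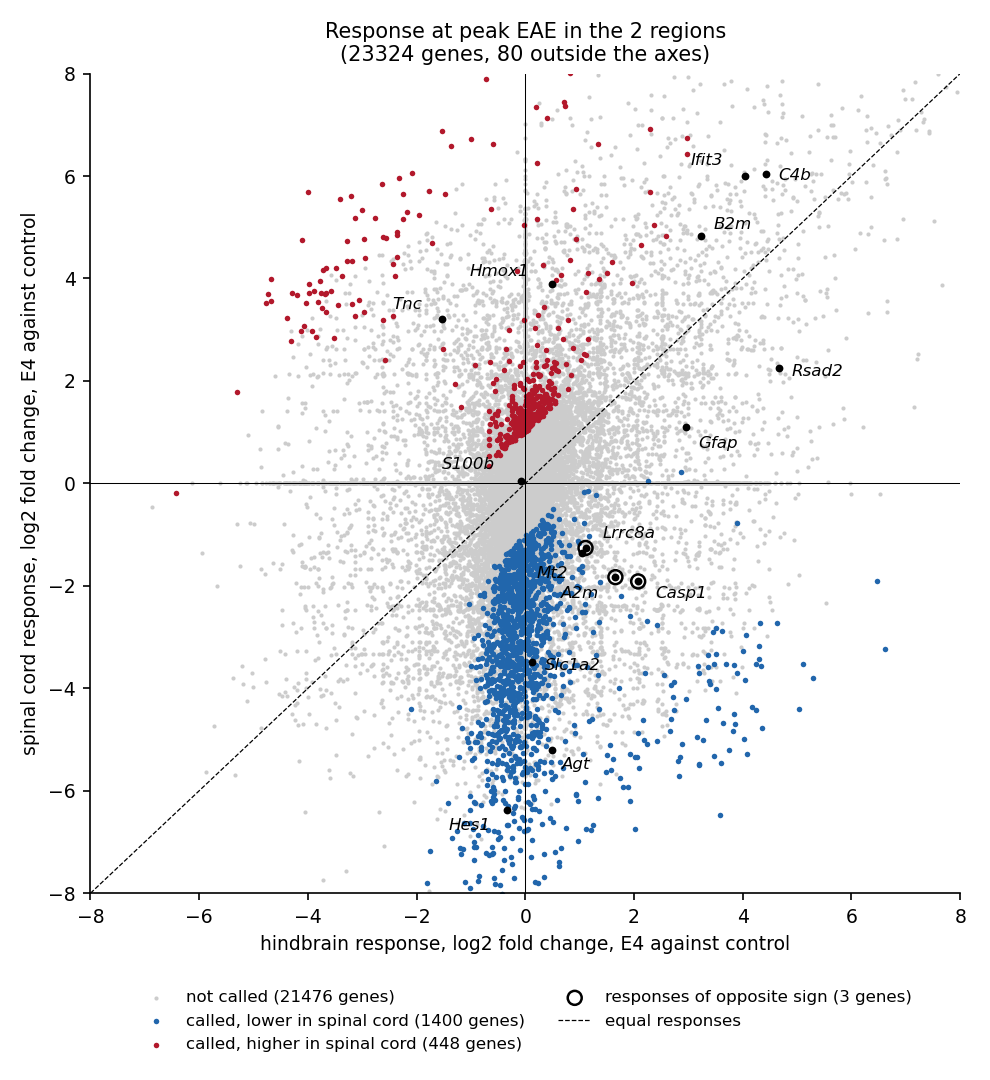
Response in spinal cord (vertical) against response in hindbrain (horizontal), each as the log2 fold change from control to E4, for the 23324 genes tested, 80 of which lie outside the axes. Blue and red mark the 1400 and 448 genes with a negative or positive difference of changes, rings the 3 genes with called responses of opposite sign, and the dashed line equal responses. Most blue points lie near 0 on the hindbrain axis and far below 0 on the spinal cord axis.

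The genes with a negative difference included many that define astrocytes. Of 22 mature astrocyte markers, 20 had a negative difference and none a positive one, with a median difference of -3.71 against -0.042 over all genes. With the sheet number term the negative count was 19. Over all genes tested 6.00% were negative and 1.92% positive, and the counts of the following lists are to be read beside these shares. In spinal cord 21 of the 22 markers fell, and in hindbrain none rose or fell. These markers fell while the oligodendrocyte marker sum was 30361 to 77684 CPM in E4 spinal cord against 14358 to 41875 in its controls.

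*Slc1a2* (ENSMUSG00000005089, chromosome 2, 102658659 to 102790784, plus strand) encodes GLT-1, the main glutamate transporter of astrocytes. It was at 4128, 3518, 2749.7, 4486 and 3919.9 CPM in the 5 control spinal cord libraries and at 139 to 603 CPM (median 294) in the 6 E4 libraries. In hindbrain the controls were at 5922, 7634, 6975, 5791 and 6436 CPM and the E4 libraries at 5966 to 8121 CPM (median 7209). The groups did not overlap in spinal cord and overlapped in hindbrain, and the difference of changes was -3.61 (SE 0.38, adjusted p = 1.2e-11). The other glial glutamate transporter, *Slc1a3* (ENSMUSG00000005360, chromosome 15, 8634124 to 8710764, minus strand), whose protein served as the negative gate, was at 215, 144, 214, 191 and 129.6 CPM in control spinal cord and 8.95 to 39.1 CPM (median 35.9) at E4. It was at 1771, 1219.6, 1407, 1137 and 1331 CPM in control hindbrain and 1186 to 1764 CPM (median 1368) at E4, where the change did not pass, and the difference was -2.56 (SE 0.37, adjusted p = 2.1e-07). That call was lost with limma-voom. The gene of the positive gate, *Atp1b2* (ENSMUSG00000041329, chromosome 11, 69599736 to 69605942, minus strand), was at 6472, 7001, 5175, 6634 and 7706 CPM in control spinal cord and at 103 to 599 CPM (median 361) at E4, although cells were sorted for its product. Hindbrain was at 6987, 8566, 8576, 5703 and 6113 CPM in controls and 7153 to 9241 CPM (median 8322) at E4, and the difference was -4.41 (SE 0.41, adjusted p = 2.7e-13).

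Of the 8 defining markers 7 had a negative difference. Among them the fibroblast growth factor receptor gene *Fgfr3* (ENSMUSG00000054252, chromosome 5, 33721674 to 33737068, plus strand) differed by -5.07 (SE 0.42, adjusted p = 1.2e-14). It was at 1442, 1133, 914, 1319 and 1649.9 CPM in control spinal cord and 14.7 to 83.2 CPM (median 39.5) at E4, with no overlap, whereas hindbrain was at 1588, 2269, 1778, 1764 and 1480.4 CPM and 1609 to 2232 CPM (median 1970). *Aldh1l1*, an enzyme of folate metabolism used as an astrocyte marker, differed by -3.70 (SE 0.46, adjusted p = 2.4e-09). *S100b* (ENSMUSG00000033208, chromosome 10, 76253853 to 76261159, plus strand), which encodes a calcium-binding protein also made by oligodendrocytes, was the defining marker that did not differ. It was at 2070.2, 2546, 1827, 1932 and 2328 CPM in control spinal cord and 1354 to 3528 CPM (median 1969) at E4, and at 1511, 1716, 1509.8, 1705 and 1337 CPM in control hindbrain and 1158 to 1877 CPM (median 1402) at E4. Both pairs of groups overlapped, and the difference was 0.12 with a 95% interval of -0.42 to 0.65.

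Of 14 genes of connexins and the endfoot complex, 11 had a negative difference and 12 fell in spinal cord, with a median difference of -3.38 (10 with the sheet number term). *Gja1* (ENSMUSG00000050953, chromosome 10, 56377330 to 56402513, plus strand), which encodes connexin 43 of astrocyte gap junctions, was at 1143, 1169.8, 847, 994 and 1013 CPM in control spinal cord and 2.26 to 81.7 CPM (median 25.4) at E4. In hindbrain it was at 2433, 1821, 2244, 1750.0 and 2147 CPM in controls and 1191 to 1866 CPM (median 1589.9) at E4, and the difference was -4.55 (SE 0.57, adjusted p = 3.3e-09). *Aqp4* (ENSMUSG00000024411, chromosome 18, 15389496 to 15410982, minus strand), the water channel of endfeet, was at 965, 975, 834, 989 and 1014 CPM in control spinal cord, 11.3 to 195 CPM (median 74.3) at E4, 1774, 1645, 1558, 1564 and 2102 CPM in control hindbrain and 1292 to 2039.8 CPM (median 1654) at E4. E4 spinal cord lay below the other 3 groups for both genes, and for *Aqp4* the difference was -3.45 (SE 0.45, adjusted p = 9.4e-09). The members with the most negative differences were *Gjb6*, the connexin 30 gene, at -5.17 (SE 0.57, adjusted p = 4.7e-11), and *Slc4a4*, a sodium bicarbonate cotransporter gene, at -4.81 (SE 0.43, adjusted p = 4.8e-14). *Kcnj10*, the Kir4.1 potassium channel gene, differed by -0.81 (SE 0.23, adjusted p = 0.012), which is below the size required.

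Transporters and enzymes of transmitter handling moved in the same direction, with 7 of 13 genes of glutamate uptake and conversion negative, 8 that fell in spinal cord (the negative count was 7 with the sheet number term too) and a median of -1.96. *Slc6a11* (ENSMUSG00000030307, chromosome 6, 114131241 to 114249952, plus strand), the GAT-3 transporter of GABA, was at 4266, 4123, 2682, 4127 and 4601 CPM in control spinal cord and 41.7 to 200.3 CPM (median 104) at E4. Hindbrain was at 9746, 12368, 12230.3, 8535 and 9174 CPM in controls and 5833 to 9114 CPM (median 7799.7) at E4, and the difference was -4.69 (SE 0.53, adjusted p = 1.1e-10). *Slc38a3*, a glutamine transporter gene, differed by -4.22 (SE 0.42, adjusted p = 2.3e-12). Glutamine synthetase, *Glul*, did not follow them: it was at 2113 to 7284 CPM in control spinal cord and 2868 to 9532 at E4, at 2334 to 4175 CPM in control hindbrain and 3512 to 6089 at E4, and its difference of 0.12 had an interval of -0.53 to 0.77. *Glul* and *Kcnj10* are also transcribed in oligodendrocytes.

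Transcription factors and patterning genes showed a negative difference for 15 of 26 members and a positive one for *Nkx6-2*, with 17 that fell in spinal cord. With the sheet number term 9 were negative and none positive. *Hes1* (ENSMUSG00000022528, chromosome 16, 30064384 to 30067796, plus strand), a repressor downstream of Notch, had the most negative difference of the list, -6.03 (SE 0.72, adjusted p = 8.0e-10). It was at 153, 144, 144, 159 and 131 CPM in control spinal cord and 0.449 to 2.72 CPM (median 2.04) at E4, and at 256, 189, 360.3, 117 and 158 CPM in control hindbrain and 28.2 to 222 CPM (median 201) at E4. *Sox9* (ENSMUSG00000000567, chromosome 11, 112782224 to 112787760, plus strand), a regulator of astrocyte identity, was at 427, 418, 394, 409.8 and 462 CPM in control spinal cord, 11.3 to 60.7 CPM (median 23.1) at E4, 1591, 1296, 1150.2, 1243 and 1775 CPM in control hindbrain and 719 to 1411 CPM (median 993) at E4, and its difference was -3.38 (SE 0.42, adjusted p = 3.5e-09). Other Notch targets and inhibitors of DNA binding were also negative, among them *Hes5* (-2.61), *Hey1* (-3.28), *Id2* (-3.43), *Id3* (-3.08) and *Id4* (-3.29). On the linear CPM scale *Hes5* turned positive, by 106 CPM, and it was at 445 ± 85.4 CPM in control hindbrain (SD, n = 5) and only 27 ± 11.4 in control spinal cord. The patterning genes *Zic1* and *Pax6* differed by -4.59 and -3.52. *Nkx6-2*, a homeobox gene of the oligodendrocyte lineage, differed by 2.49 (SE 0.62, adjusted p = 0.0040), and by 1.91 (adjusted p = 0.11) with the sheet number term.

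Signals from astrocytes to vessels were negative for 9 of 16 genes (6 with the sheet number term), with a median of -2.33. *Agt* (ENSMUSG00000031980, chromosome 8, 124556534 to 124569706, minus strand), the precursor of angiotensins, was at 694, 565, 497, 556 and 745 CPM in control spinal cord and 3.38 to 40.3 CPM (median 12.7) at E4. Hindbrain controls were at 1067, 1042, 1157, 872 and 862 CPM and E4 hindbrain at 758 to 2155 CPM (median 1379), so E4 spinal cord was the lowest group by a wide margin and the difference was -5.70 (SE 0.57, adjusted p = 2.0e-12). The Wnt ligand genes *Wnt7a* and *Wnt7b*, which act on brain endothelium, differed by -4.76 (SE 0.70, adjusted p = 2.9e-07) and by -3.45 (SE 0.36, adjusted p = 1.2e-11). *Vegfa*, an angiogenic growth factor gene, differed by -3.89 (SE 0.51, adjusted p = 1.0e-08). *Entpd2* (ENSMUSG00000015085, chromosome 2, 25395874 to 25401321, plus strand), an enzyme that cleaves extracellular ATP, had a difference that, with that of *Egfl6*, was the most negative among genes that met the rule on levels. It was at 232, 167, 132, 190.3 and 185 CPM in control spinal cord and 0 to 3.87 CPM (median 0.839) at E4, and at 251, 183, 282, 122 and 185 CPM in control hindbrain and 67.6 to 214 CPM (median 162) at E4, a difference of -6.43 (SE 0.62, adjusted p = 6.7e-13). *Egfl6*, *Ccdc80* and *Sfrp5*, which encode secreted proteins, differed by -6.43, -6.34 and -5.39. The remaining genes with the most negative differences were *Castor1*, *Zcchc12*, *Lgr6*, *Slco4a1*, *Aifm3*, *Exoc3l4* and *Slc7a10*, from -6.10 to -5.67. Single E4 spinal cord libraries set the sizes of *Egfl6*, at -9.78 without replicate 2, *Castor1*, at -9.42 without replicate 4, and *Lgr6*, at -9.45 without replicate 5, and the call for *Zcchc12* was lost without control spinal cord replicate 1 (-5.16) or E4 hindbrain replicate 6 (-5.20).

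Metabolic genes followed in part. Of 25 genes of glycolysis, lactate and glycogen, 12 were negative, among them the muscle and platelet phosphofructokinases *Pfkm* (-4.03) and *Pfkp* (-3.33), the glycogen phosphorylase *Pygm* (-3.49) and aldolase C, *Aldoc* (-3.17). Of 16 genes of apolipoproteins and cholesterol export, 6 were negative and 1 positive. *Clu* differed by -3.65 (SE 0.35, adjusted p = 4.5e-13) and *Apoe*, the main lipid carrier of astrocytes, by -2.84 (SE 0.48, adjusted p = 5.9e-06), whereas *Npc2*, a lysosomal cholesterol carrier gene, differed by 1.03 (SE 0.29, adjusted p = 0.016). Sterol synthesis enzymes were negative for 4 of 19, with a median of -0.15. Among secreted factors that organize synapses 9 of 21 were negative, including *Sparcl1* (-4.08) and the glypican *Gpc5* (-5.26). *Gpc4* and the homeobox gene *Hoxb2* were at 0 CPM in all 6 E4 spinal cord libraries and at 6.02 ± 2.61 and 6.47 ± 5.98 CPM in the controls (SD, n = 5), so no fold is given. FGF, BMP and WNT signalling was negative for 7 of 24 genes (29.2%), with *Bmpr1b* at -3.57, and the Hox genes for 3 of 28 (10.7%). Over all genes tested the negative share was 6.00%. With the sheet number term the negative counts were 11 for glycolysis, lactate and glycogen, 5 for apolipoproteins and cholesterol export, 2 for sterol synthesis, 7 for synapse-organizing factors, 5 for FGF, BMP and WNT signalling and 0 for Hox genes, and 7 Hox genes were negative with limma-voom. The call for *Hoxb2* was also lost without control spinal cord replicate 1 or E4 hindbrain replicate 1.

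**Figure D3:**
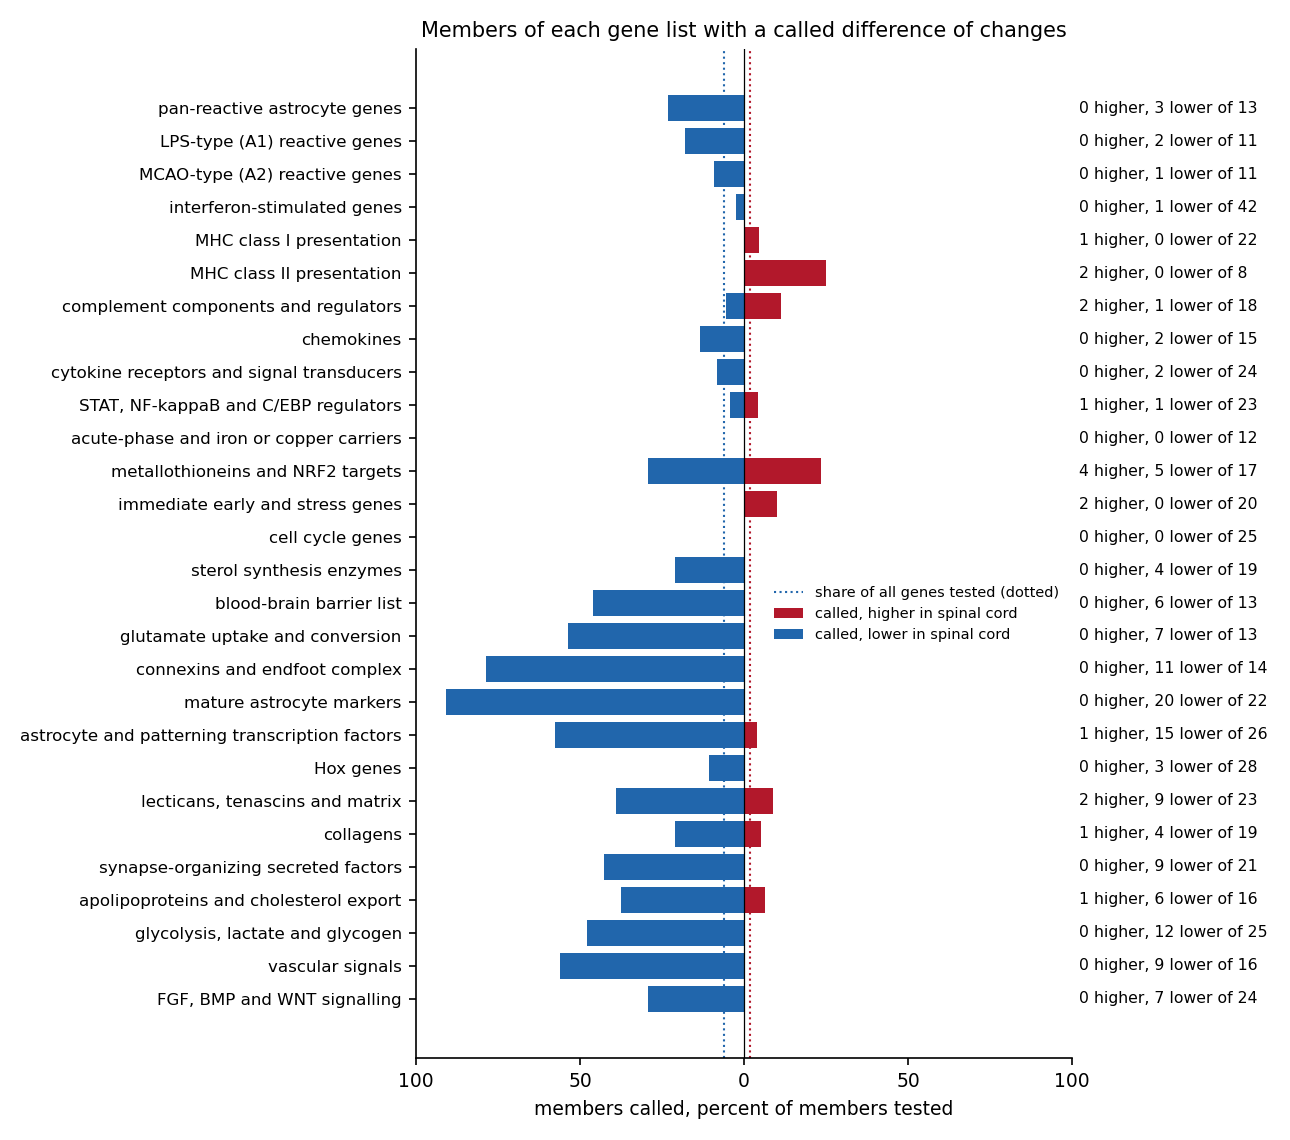
Members of 28 gene lists with a called difference of changes, as a percentage of the members tested, to the left where lower and to the right where higher in spinal cord. Dotted lines mark the shares over all genes tested, 6.00% and 1.92%. Lists of astrocyte identity extend far to the left, with 20 of 22 mature astrocyte markers, and interferon-stimulated genes hardly at all, with 1 of 42.

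A total of 3 genes passed the test in both regions with opposite signs, 0.0129% of those tested, and all 3 fell in spinal cord and rose in hindbrain. *Lrrc8a* (ENSMUSG00000007476, chromosome 2, 30237715 to 30263790, plus strand) encodes an essential subunit of the volume-regulated anion channel. It was at 89.2, 107, 104, 155 and 163 CPM in control spinal cord and 46.8 to 61.8 CPM (median 49.7) at E4, a log2 fold change of -1.26. In hindbrain it was at 157, 243, 244, 208 and 150.1 CPM in controls and 385 to 516 CPM (median 415) at E4, a log2 fold change of 1.11. Neither pair of groups overlapped, and the difference was -2.37 (SE 0.35, adjusted p = 3.7e-07). Reads of *Lrrc8a* may be split with *Gm28035*, which overlaps it on the same strand.

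*A2m* (ENSMUSG00000030111, chromosome 6, 121635376 to 121679227, plus strand), the gene of the protease inhibitor alpha-2-macroglobulin, was at 37.7, 17.4, 17.5, 26.4 and 16.8 CPM in control spinal cord and 3.38 to 8.88 CPM (median 6.25) at E4. It was at 50.1, 53.8, 51.3, 45 and 37.1 CPM in control hindbrain and 128 to 215 CPM (median 135) at E4, again without overlap in either region. The responses were -1.83 and 1.66, and their difference was -3.49 (SE 0.53, adjusted p = 4.7e-07). *Casp1* (ENSMUSG00000025888, chromosome 9, 5298517 to 5307265, plus strand), the inflammasome protease that matures interleukin 1 beta, was low in all groups. It was at 2.48, 2.3, 5.16, 7.85 and 4.68 CPM in control spinal cord, 0 to 2.7 CPM (median 0.871) at E4, 2.12, 2.3, 2.66, 3.81 and 6.74 CPM in control hindbrain and 10.7 to 27.6 CPM (median 12.9) at E4. E4 hindbrain held the highest values of *Casp1* and E4 spinal cord values near the floor, with a difference of -3.99 (SE 0.78, adjusted p = 0.00011). The difference of changes stayed called for all 3 genes in every alternative fit, but the opposite signs did not. With the sheet number term, and with limma-voom, *Lrrc8a* was the only member of the 3 that passed in both regions. With spinal cord sheet numbers from 57, and in a test against a log2 difference of 1, none of the 3 did. Without 1 library *Casp1* no longer passed in both regions in 6 of the 22 cases, namely without control hindbrain replicate 1, 2, 3 or 4, control spinal cord replicate 4 or E4 hindbrain replicate 1.

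Genes of astrocyte reactivity did not respond as 1 block. Of 13 pan-reactive genes 3 had a negative difference, 7 rose in spinal cord and 5 in hindbrain, and none of the 3 calls held with the sheet number term. *Gfap* (ENSMUSG00000020932, chromosome 11, 102887336 to 102900912, minus strand), the intermediate filament gene of reactive astrocytes, was at 25.1, 26.7, 39.3, 27.4 and 29.2 CPM in control hindbrain and 182 to 285 CPM (median 228) at E4. In spinal cord it was at 47.6, 26.9, 69.1, 50.6 and 50.1 CPM in controls and 85.2 to 152 CPM (median 95.5) at E4. Both regions were higher at E4 without overlap, and the rise was larger in hindbrain (2.96 against 1.10), a difference of -1.86 (SE 0.49, adjusted p = 0.0064) and of -1.70 (adjusted p = 0.089) with the sheet number term. *Timp1* (ENSMUSG00000001131, chromosome X, 20870166 to 20874735, plus strand), an inhibitor of matrix metalloproteinases, was at 3.82, 0, 0.666, 1.73 and 0 CPM in control hindbrain and 11.2 to 27 CPM (median 19.5) at E4, but at 0, 10.2, 0, 0 and 0.468 CPM in control spinal cord and 0 to 6.74 CPM (median 0.227) at E4. Its difference was -4.67 (SE 1.52, adjusted p = 0.040), and -5.32 (adjusted p = 0.11) with the sheet number term. It was -0.66 (adjusted p = 1.00) without control spinal cord replicate 2, the library at 10.2 CPM, and the call was lost in 12 of the 22 fits that left out 1 library. *Serpina3n*, a serine protease inhibitor gene, rose in both regions. Its control libraries lay at 6.74 to 24 CPM in hindbrain and 12.6 to 32.2 in spinal cord, its E4 libraries at 279 to 588 and 1675 to 2160.4, and the difference of 1.55 had an interval of 0.25 to 2.86 and did not pass (adjusted p = 0.14). Of the 11 A1 and 11 A2 genes, named for astrocytes of lipopolysaccharide-treated and of ischaemic brain, 2 (18.2%) and 1 (9.09%) were negative. Over all genes tested 6.00% were negative. Only 3 of the A2 genes averaged at least 5 CPM in a group, so counts this small are not read as a result about either list.

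Among receptors for cytokines and their signal transducers 2 of 24 genes were negative and none positive, 8.33% against the 6.00% negative over all genes tested, so that the list as a whole was near the background and only the values of its 2 called genes are described. *Il17ra* (ENSMUSG00000002897, chromosome 6, 120463247 to 120487559, plus strand), a receptor subunit for interleukin 17, was at 123, 122, 76.5, 168 and 176 CPM in control spinal cord and 35.4 to 125 CPM (median 50.6) at E4, and at 90.1, 123, 157, 181 and 89.4 CPM in control hindbrain and 214 to 277 CPM (median 257) at E4. The groups overlapped in spinal cord and not in hindbrain, and the difference was -2.09 (SE 0.40, adjusted p = 9.5e-05), called in all 35 alternative fits. *Tnfrsf1a* (ENSMUSG00000030341, chromosome 6, 125349362 to 125362484, plus strand), the main receptor of tumour necrosis factor, was at 86.7, 121, 117, 95.2 and 93.3 CPM in control hindbrain and 208 to 307 CPM (median 246) at E4, with no overlap. In spinal cord it was at 103, 56.4, 73.7, 98.3 and 121 CPM in controls and 55.8 to 116 CPM (median 75.3) at E4, which overlapped. Its difference was -1.54 (SE 0.38, adjusted p = 0.0040), and -0.90 (adjusted p = 0.36) with the sheet number term.

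**Figure D4:**
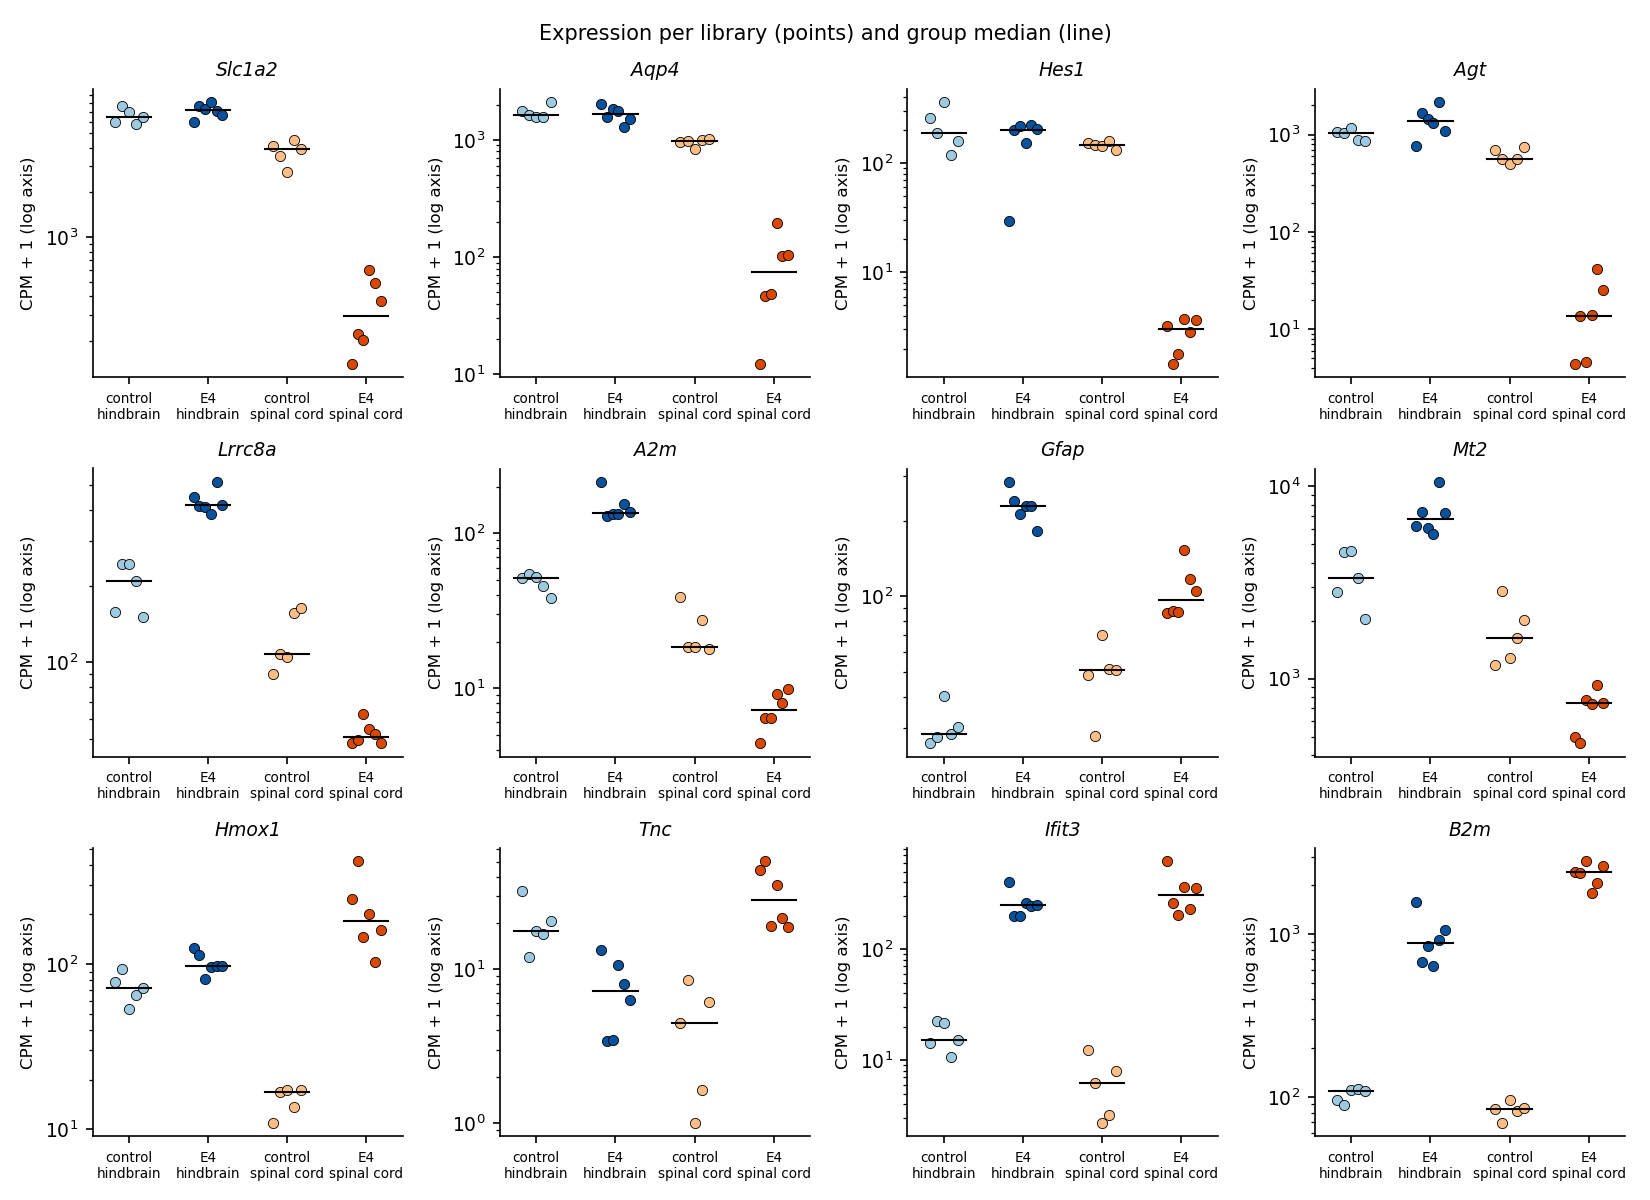
CPM + 1 (log axis) of 12 genes in each of the 22 libraries by group, with group medians as lines. *Slc1a2*, *Aqp4*, *Hes1* and *Agt* are low in E4 spinal cord, *Lrrc8a* and *A2m* rise in hindbrain and fall in spinal cord, *Gfap* rises more in hindbrain, *Hmox1* and *Tnc* are higher at E4 in spinal cord, and *Ifit3* and *B2m* rise in both regions.

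The responses that hindbrain shared with spinal cord included those of interferon-stimulated and antigen presentation genes. Of the 165 genes that rose in hindbrain, 148 (89.7%) rose in spinal cord as well, against 6.80% of all genes tested. For 138 of these 148 the difference of changes was not called. It was called for 6.76% of the 148 and for 7.92% of all genes tested, so that share was near the background. Interferon binding to its receptors activates transcription factors that bind short elements in promoters, and the interferon-stimulated response element (ISRE) was searched as TTTC, 2 free bases, TTTC on both strands. It was present in 3.44% of 32851 mouse promoters of 300 bases in RefSeq (GRCm38.p6) and in promoters of 20 of the 31 interferon-stimulated genes that had an entry. It was in promoters of 4.39% of the genes with a positive difference, 4.59% of those with a negative one and 3.87% of all genes tested that had an entry. A match is a description of letters and not evidence of binding. The promoters of 3 genes described next are shown 5′ to 3′ on the strand of the gene, from 250 bases before to 50 after its start, with ISRE matches in capitals. They lie at chr19:34583279-34583578 (plus strand), chr2:122147437-122147736 (plus strand) and chr12:26456403-26456702 (minus strand), and were chosen because the 3 genes stand for a difference that was not called, a positive one and a negative one.
*Ifit3*: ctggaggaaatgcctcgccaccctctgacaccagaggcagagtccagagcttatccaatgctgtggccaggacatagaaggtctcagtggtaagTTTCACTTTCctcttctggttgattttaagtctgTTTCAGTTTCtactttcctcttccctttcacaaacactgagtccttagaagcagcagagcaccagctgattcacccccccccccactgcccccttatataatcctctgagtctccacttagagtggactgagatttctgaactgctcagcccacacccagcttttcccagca
*B2m*: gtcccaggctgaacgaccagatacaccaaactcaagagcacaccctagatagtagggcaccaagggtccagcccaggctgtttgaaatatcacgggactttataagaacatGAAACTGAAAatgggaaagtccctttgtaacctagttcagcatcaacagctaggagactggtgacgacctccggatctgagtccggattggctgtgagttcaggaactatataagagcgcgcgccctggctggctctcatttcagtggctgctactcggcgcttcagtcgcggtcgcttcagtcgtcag
*Rsad2*: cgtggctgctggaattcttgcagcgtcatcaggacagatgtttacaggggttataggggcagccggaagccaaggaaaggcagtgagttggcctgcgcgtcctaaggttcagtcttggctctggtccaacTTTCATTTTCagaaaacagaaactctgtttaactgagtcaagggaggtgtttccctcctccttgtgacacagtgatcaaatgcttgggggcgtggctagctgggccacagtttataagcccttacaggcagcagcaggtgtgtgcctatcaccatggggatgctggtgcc

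Of 42 interferon-stimulated genes, 40 rose in spinal cord and 35 in hindbrain, and the difference was called for *Rsad2* alone. The median difference over the list was 0.032. *Ifit3* (ENSMUSG00000074896, chromosome 19, 34583531 to 34588731, plus strand), whose product restrains viral RNA, was at 13.2, 21.6, 20.6, 9.7 and 14.1 CPM in control hindbrain and 196 to 398 CPM (median 248) at E4. In spinal cord it was at 11.4, 5.25, 1.72, 2.2 and 7.02 CPM in controls and 202 to 620.0 CPM (median 306) at E4. All E4 libraries lay above all controls, the E4 groups of the 2 regions overlapped, and the difference of 1.97 (interval 0.44 to 3.50) did not pass (adjusted p = 0.10). For *Igtp* and *Iigp1*, genes of interferon-inducible GTPases, the differences were -0.67 (-2.24 to 0.90) and -0.91 (-3.20 to 1.38). The intervals span several-fold differences, so an equal response was not shown for single genes. *Rsad2* (ENSMUSG00000020641, chromosome 12, 26442746 to 26456452, minus strand), the viperin gene, was at 13.6, 14.7, 25.3, 13.2 and 10.1 CPM in control hindbrain and 306 to 526 CPM (median 376) at E4, and at 14.4, 20.01, 16.6, 12.2 and 40.7 CPM in control spinal cord and 52.7 to 146 CPM (median 103) at E4. It rose in both regions and more in hindbrain, a difference of -2.42 (SE 0.75, adjusted p = 0.030), and -2.26 (adjusted p = 0.20) with the sheet number term. The call was also lost without control hindbrain replicate 4 or 5 or control spinal cord replicate 5, with values of -2.35, -2.33 and -2.04.

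Antigen presentation by MHC class I rose in both regions, with 16 of 22 genes in spinal cord and 14 in hindbrain. The heavy chain genes *H2-K1* and *H2-D1* differed by 0.13 (interval -0.73 to 0.98) and 1.24 (0.19 to 2.28), and neither passed. *B2m* (ENSMUSG00000060802, chromosome 2, 122147686 to 122153083, plus strand), the light chain of MHC class I, was the called member. It was at 94.3, 87.9, 109, 111 and 107 CPM in control hindbrain and 636 to 1588 CPM (median 879.8) at E4, and at 83.8, 68.2, 94.3, 81 and 84.7 CPM in control spinal cord and 1803 to 2814 CPM (median 2401) at E4. E4 spinal cord lay above E4 hindbrain, with a difference of 1.61 (SE 0.47, adjusted p = 0.017), and of 1.15 (adjusted p = 0.25) with the sheet number term. *C4b* (ENSMUSG00000073418, chromosome 17, 34728380 to 34743882, minus strand), complement component 4, was at 39.1, 22.5, 51.3, 26.3 and 32.6 CPM in control hindbrain, 579.8 to 1075 CPM (median 672) at E4, 4.96, 24.3, 23.5, 19.2 and 21.1 CPM in control spinal cord and 959 to 1582 CPM (median 1202) at E4. Its difference was 1.62 (SE 0.52, adjusted p = 0.039), and 1.28 (adjusted p = 0.29) with the sheet number term, and the call was lost in 12 of the 22 fits without 1 library. Reads of MHC class I genes can be shared among near-identical copies, which makes the counts of single members uncertain.

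**Figure D5:**
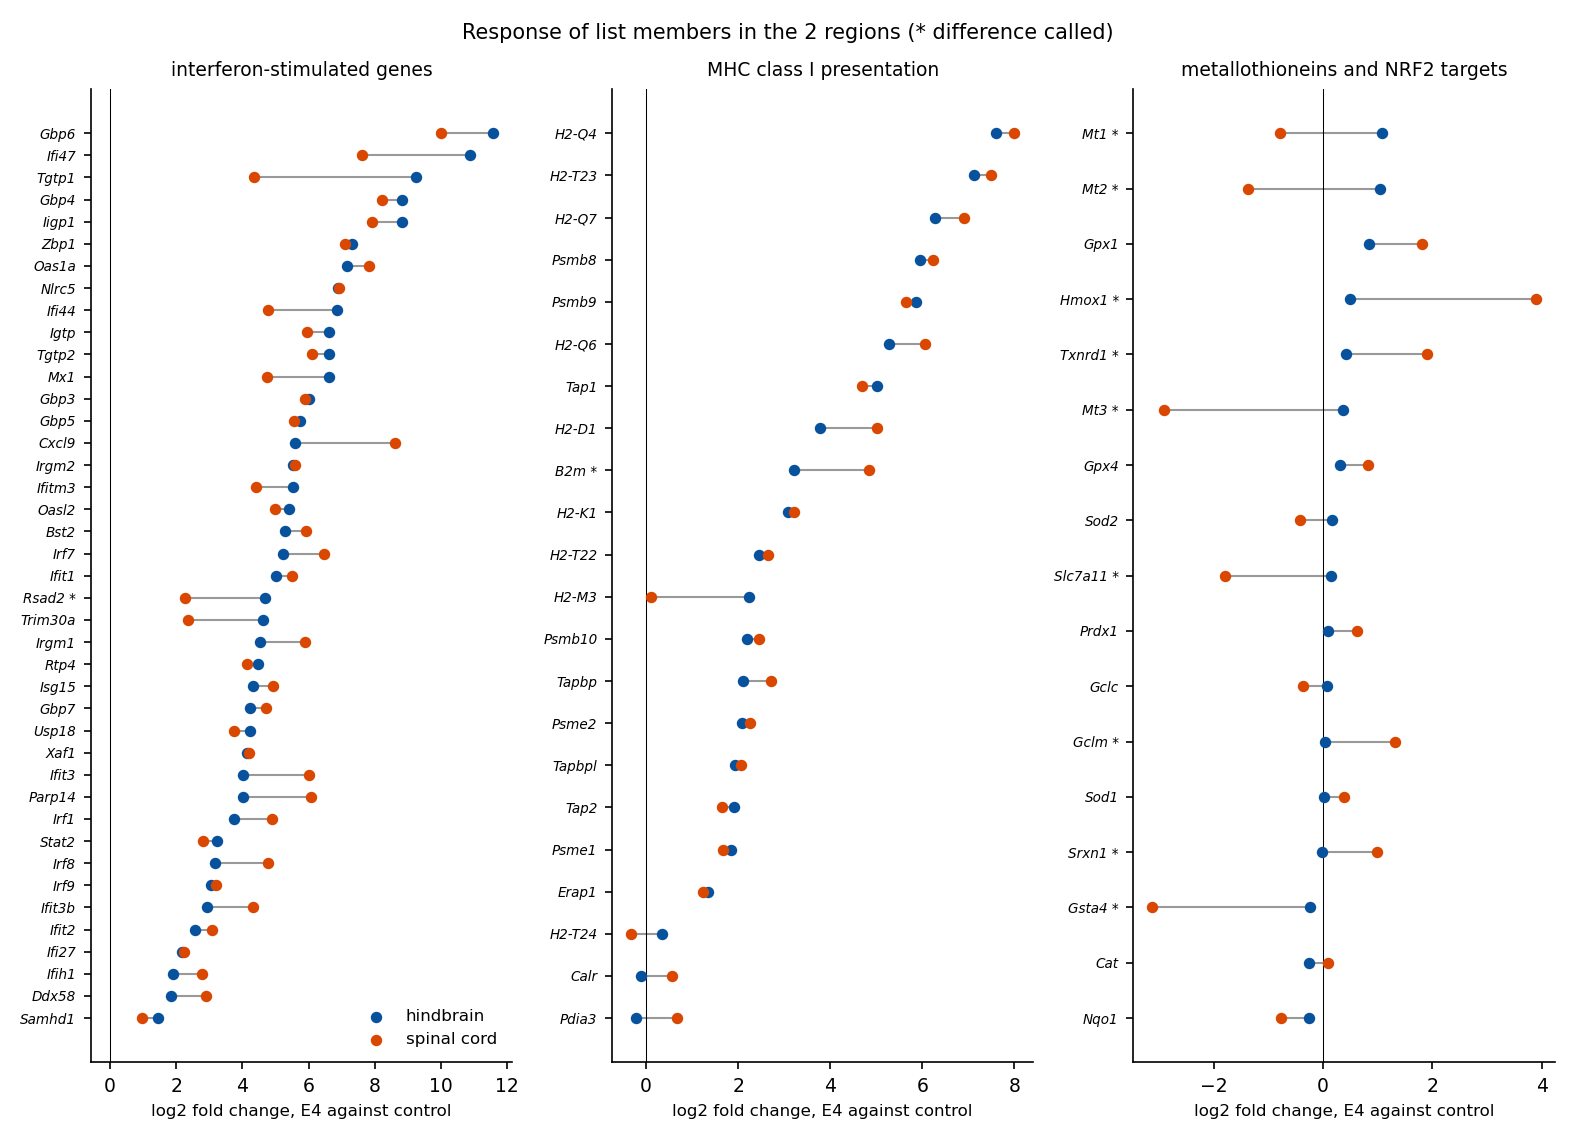
Log2 fold change from control to E4 of the members in hindbrain (blue) and spinal cord (orange) for 3 gene lists, with 1 interferon-stimulated gene not shown and with an asterisk where the difference of changes was called. Interferon-stimulated and MHC class I genes rise in both regions, with *Rsad2* and *B2m* as the called members, whereas metallothioneins and NRF2 targets split in 2 directions.

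Besides *Gfap*, *Tnfrsf1a*, *Rsad2* and the genes of opposite sign, 5 genes that rose in hindbrain had a negative difference. *Hpgd*, which degrades prostaglandins, *Slc5a3*, an inositol transporter gene, *Mylk*, a myosin light chain kinase gene, and *Lgals3bp*, which encodes a secreted galectin ligand, rose by 2.26, 1.08, 1.15 and 2.86 in hindbrain, and were at 0.042, -0.17, -0.15 and 0.23 in spinal cord, where none passed. *Adamtsl2* was at 6.68 to 16.8 CPM in E4 hindbrain and at most 3.15 CPM in any other library, and its difference of -8.39 was -4.31 and not called without control spinal cord replicate 3. The call for *Hpgd* (-2.22) was lost without control hindbrain replicate 5 (-2.03) or control spinal cord replicate 3 (-1.81), and that for *Mylk* (-1.30) without control spinal cord replicate 2 (-1.15). *Lgals3bp* was at 44.6 to 79.3 CPM in control hindbrain, 337 to 659.9 at E4, 33.3 to 88.9 in control spinal cord and 19.2 to 115 at E4, with a difference of -2.64 (SE 0.55, adjusted p = 0.00029). The 8 genes that rose in both regions and more in spinal cord were *B2m*, *C4b*, *Endod1*, *Dtx3l*, *Tubb3*, *Ctss*, *C1qb* and *H2-Eb1*.

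Metallothioneins and targets of NRF2, the factor of the response to oxidants and electrophiles, split in direction. Of 17 members 4 were positive and 5 negative, or 1 and 2 with the sheet number term. Over all genes tested 1.92% were positive and 6.00% negative. NRF2 binds the antioxidant response element (ARE), searched here as TGACNNNGC on both strands. It was in 12.4% of the 32851 promoters and in promoters of 6 of the 14 members with an entry, and in promoters of 15.7% and 15.5% of the genes with a positive and a negative difference, against 16.4% of all genes tested that had an entry. The members with a match were *Gclm*, *Srxn1* and *Txnrd1*, which were positive, *Mt2*, which was negative, and *Prdx1* and *Sod1*, which were not called. *Hmox1*, a positive member described below, was not among them. The promoters of the 3 positive members with a match are shown in the same way, with ARE matches in capitals. They lie at chr2:152105274-152105573, chr3:122245307-122245606 and chr10:82858956-82859255, all on the plus strand, the last being 1 of 3 promoters of its gene.
*Srxn1*: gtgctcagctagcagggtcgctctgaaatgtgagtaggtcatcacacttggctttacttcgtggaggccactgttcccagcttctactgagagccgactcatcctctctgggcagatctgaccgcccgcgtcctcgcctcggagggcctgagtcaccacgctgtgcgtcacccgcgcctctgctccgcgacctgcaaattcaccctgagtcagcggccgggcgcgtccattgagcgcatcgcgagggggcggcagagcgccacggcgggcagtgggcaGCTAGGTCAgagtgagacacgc
*Gclm*: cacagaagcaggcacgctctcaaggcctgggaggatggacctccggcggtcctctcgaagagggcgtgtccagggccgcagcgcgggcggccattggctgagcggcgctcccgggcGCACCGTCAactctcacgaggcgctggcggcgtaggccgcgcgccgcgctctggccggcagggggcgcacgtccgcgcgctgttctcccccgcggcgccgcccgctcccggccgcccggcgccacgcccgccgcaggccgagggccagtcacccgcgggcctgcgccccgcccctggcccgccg
*Txnrd1*: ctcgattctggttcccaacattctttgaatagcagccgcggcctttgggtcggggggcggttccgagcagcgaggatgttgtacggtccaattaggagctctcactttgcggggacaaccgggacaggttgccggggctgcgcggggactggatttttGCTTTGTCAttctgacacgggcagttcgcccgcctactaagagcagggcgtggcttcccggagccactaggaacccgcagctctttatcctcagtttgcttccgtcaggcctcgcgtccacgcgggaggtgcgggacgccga

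*Hmox1* (ENSMUSG00000005413, chromosome 8, 75093621 to 75100589, plus strand), heme oxygenase 1, had the largest positive difference of the list, 3.39 (SE 0.46, adjusted p = 2.5e-08), and stayed called in all 35 alternative fits. It was at 9.91, 15.7, 16.3, 12.6 and 16.4 CPM in control spinal cord and 102 to 419.6 CPM (median 180.3) at E4, and at 76.5, 92.5, 52.6, 64.1 and 70.3 CPM in control hindbrain and 79.9 to 125 CPM (median 96.3) at E4. The spinal cord controls lay below every other library and the E4 libraries of both regions overlapped, so the rise started from a lower level than in hindbrain. *Srxn1* (ENSMUSG00000032802, chromosome 2, 152105516 to 152111376, plus strand), which repairs oxidized peroxiredoxins, was at 75.4, 135, 78, 74.4 and 70.7 CPM in control spinal cord, 139 to 211 CPM (median 173) at E4, 182, 123, 109, 88.6 and 85.4 CPM in control hindbrain and 92.3 to 171 CPM (median 108) at E4. Its difference was 1.02 (SE 0.32, adjusted p = 0.034), close to the size required, and the call was lost in 12 of the 22 fits without 1 library. With the replicate number as a block it was 0.99 (adjusted p = 0.048), below that size. *Gclm*, a subunit of the enzyme that starts glutathione synthesis, and *Txnrd1*, thioredoxin reductase 1, differed by 1.29 (SE 0.32, adjusted p = 0.0040) and by 1.49 (SE 0.38, adjusted p = 0.0056). Of these 4 positive members only *Hmox1* kept its call with the sheet number term.

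The metallothionein *Mt2* (ENSMUSG00000031762, chromosome 8, 94172664 to 94173568, plus strand), a metal-binding protein gene, moved the other way. It was at 2825, 4567, 4579, 3315 and 2042 CPM in control hindbrain and 5626 to 10552 CPM (median 6748) at E4, but at 1176, 2836, 1274, 1623 and 2011 CPM in control spinal cord and 459 to 926 CPM (median 744) at E4. The groups did not overlap in either region. The responses were 1.05 in hindbrain (adjusted p = 0.38) and -1.37 in spinal cord (adjusted p = 0.0036), and the difference was -2.42 (SE 0.53, adjusted p = 0.00067), and -1.51 (adjusted p = 0.19) with the sheet number term. *Mt1* and *Mt3* differed by -1.86 and -3.28, *Gsta4*, a glutathione transferase gene, by -2.88, and the cystine transporter gene *Slc7a11* by -1.93. The call for *Slc7a11* was lost in 8 of the 22 fits without 1 library, and its value was -3.13 without E4 spinal cord replicate 2.

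Among matrix genes, 9 of 23 lecticans, tenascins and related genes were negative and 2 positive (7 and 1 with the sheet number term). *Bcan*, the brevican gene, differed by -3.27 (SE 0.44, adjusted p = 2.8e-08), whereas *Vcan*, the versican gene, which oligodendrocyte precursors also express, differed by 1.55 (SE 0.46, adjusted p = 0.021). *Tnc* (ENSMUSG00000028364, chromosome 4, 63959785 to 64047015, minus strand), tenascin-C, a matrix protein of lesions and of precursor cells, was at 3.47, 7.54, 0, 0.628 and 5.15 CPM in control spinal cord and 17.8 to 49.4 CPM (median 27.4) at E4. In hindbrain it was at 31, 11, 16.6, 15.9 and 19.7 CPM in controls and 2.4 to 12.3 CPM (median 6.18) at E4. It rose in spinal cord by 3.21 and its estimate in hindbrain was -1.54 (adjusted p = 0.47), with a difference of 4.75 (SE 0.87, adjusted p = 3.4e-05) that was called in all 35 alternative fits. The 7 oligodendrocyte precursor markers, none of which was called, summed to 1426 to 2977 CPM in E4 and 1533 to 2449 in control spinal cord. *Neurl1b* (ENSMUSG00000034413, chromosome 17, 26414829 to 26446349, plus strand), a ubiquitin ligase gene of the Notch pathway, was at 0, 0, 0.287, 1.57 and 0 CPM in control spinal cord and 2.22 to 43.4 CPM (median 16.8) at E4, and at 3.82, 0.92, 3.33, 2.08 and 1.12 CPM in control hindbrain and 0.739 to 2.94 CPM (median 1.16) at E4. Its controls were mostly under the floor, and the difference was 5.99 (SE 1.37, adjusted p = 0.0014). *Lbh*, a transcription cofactor gene, and *Snx10*, an endosomal sorting nexin gene, rose in spinal cord by 2.37 and 3.18, with differences of 2.41 (SE 0.31, adjusted p = 6.7e-09) and 3.21 (SE 0.50, adjusted p = 1.1e-06).

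Several of the largest positive differences rested on few libraries. *Actg1* (ENSMUSG00000062825, chromosome 11, 120345690 to 120348542, minus strand), cytoplasmic gamma actin, differed by 10.30 (SE 3.09, adjusted p = 0.022) against spinal cord controls at 0, 0, 2.87, 0 and 0 CPM, so the size is uncertain. E4 spinal cord replicate 5 was at 2017 CPM, replicate 2 at 283 and the other 4 between 4.44 and 8.46. In hindbrain the controls were at 307, 91.1, 253, 0 and 1.69 CPM and 1 E4 library at 326 CPM, with the other 5 at or under 1.2. *Erh* and *Golga7* were equally uneven within groups, and their differences of 8.42 and 5.00 are given as values only, being 13.01 for *Erh* without control spinal cord replicate 5 and 2.78 for *Golga7* without control hindbrain replicate 2. For *Actg1* the call was lost without E4 spinal cord replicate 5 (7.63), and the value was 17.27 without E4 hindbrain replicate 6. *Actb*, beta actin, was even by comparison, at 1235 to 2221 CPM in control and 3276 to 7398 in E4 spinal cord, and differed by 1.44 (SE 0.26, adjusted p = 2.2e-05).

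The calls for genes of myeloid cells and of MHC class II were lost without E4 spinal cord replicate 2, and most of them without other libraries too. *Itgam* (ENSMUSG00000030786, chromosome 7, 128062640 to 128118491, plus strand), which encodes CD11B, a protein the sort had gated out, was at 519.8 CPM in that library and between 5.46 and 9.03 in the other 5. Control spinal cord was at 7.44, 0, 0, 0.628 and 1.4 CPM, control hindbrain at 4.25, 4.14, 3.33, 5.19 and 1.12 CPM and E4 hindbrain at 4.001 to 14 CPM (median 5.96). Its difference was 4.81 (SE 1.25, adjusted p = 0.0062) with the library and 1.15 (adjusted p = 0.65) without it. *C1qb*, a subunit of complement C1, differed by 3.45 with it and by 1.40 (adjusted p = 0.35) without it. For *Ctss*, the protease cathepsin S, the values were 2.69 and 0.11 (adjusted p = 1.00), and for *H2-Eb1*, an MHC class II chain, 6.58 and 4.93 (adjusted p = 0.097). The call was also lost without that library for other genes of myeloid cells, namely *Fcgr3* (3.77 with it, 1.34 without it, adjusted p = 0.56), *Laptm5* (3.40 with it, 1.78 without it, adjusted p = 0.35) and *S100a8* (7.60 with it, 5.13 without it, adjusted p = 0.15), the last also at 3.39 without control hindbrain replicate 2. It was lost with a smaller value for *Klf4* (3.83 with it, 0.21 without it, adjusted p = 1.00), *Baz1a* (3.42 with it, 1.61 without it, adjusted p = 0.42), *Fos* (2.74 with it, 2.16 without it, adjusted p = 0.065), *Golga7* (5.00 with it, 4.13 without it, adjusted p = 0.093), *Vcan* (1.55 with it, 1.31 without it, adjusted p = 0.065) and *Npc2* (1.03 with it, 0.83 without it, adjusted p = 0.059). For *Tubb3* (2.25 with it, 2.26 without it, adjusted p = 0.051), *Dtx3l* (1.95 with it, 1.80 without it, adjusted p = 0.072), *Rasip1* (4.48 with it, 4.42 without it, adjusted p = 0.053) and *Hoxb4* (-2.73 with it, -2.73 without it, adjusted p = 0.060) it was lost while the value changed little, and each of these 4 calls was lost without at least 14 of the 22 libraries in turn. Leaving out each library in turn, the call was lost in 15 of the 22 fits for *Laptm5*, 12 for *Fcgr3* and 11 for *S100a8*. The count was 8 for *Ctss*, 7 for *H2-Eb1*, 2 for *C1qb* and 1 for *Itgam*. *H2-Eb1* was at 0 CPM in all control spinal cord libraries and at 11.8 to 46.6 CPM in the E4 ones other than replicate 2, so its size is uncertain. Of 8 MHC class II genes, 7 rose in spinal cord and 5 in hindbrain. *Cd74*, the invariant chain, was at 0 in all control libraries of both regions, at 6.85 to 44.7 CPM in E4 hindbrain and at 0 to 261 in E4 spinal cord, and its difference was not called.

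Several lists contained few or no called genes. Over all genes tested 1.92% were positive and 6.00% negative, so counts of 1 or 2 members are not read as results about a list. No member was called among 12 acute-phase genes and carriers, 25 cell cycle genes, 10 T cell, 6 endothelial and 5 cerebellar granule neuron markers. Of 15 chemokines *Cxcl14* and *Cx3cl1* were negative, and both fell in spinal cord. *Cxcl10*, which interferon induces, was at 0 CPM in all control hindbrain libraries and at most 2.58 in control spinal cord. At E4 it was at 41 to 76.9 CPM in hindbrain and 0.778 to 27.4 in spinal cord. Its difference of -6.96 did not pass (adjusted p = 0.080), and with controls at or near 0 the size is uncertain. *Stat5a* was negative and *Rela* positive among 23 regulators of the STAT, NF-kappaB and C/EBP families, *Fos* and *Klf4* positive among 20 immediate early genes. Of 10 neuron markers 5 were negative and *Tubb3*, a tubulin gene, positive. *Tubb3* alone was at 504 ± 88.6 CPM in E4 spinal cord (SD, n = 6), most of the neuron marker sum of 498 to 758 CPM there. Bergmann glia genes of the cerebellum were negative for 5 of 9, pericyte and fibroblast markers for 3 of 10, collagens for 4 of 19 with *Col6a2* positive, and ependymal markers for 2 of 9. With the sheet number term the negative counts were 0 of 10 neuron markers, 4 of 9 Bergmann glia genes, 2 of 10 pericyte and fibroblast markers, 2 of 19 collagens and 0 of 9 ependymal markers. The difference of *Col6a2*, 8.41, was 5.54 and not called without control hindbrain replicate 1. A further group of 13 blood-brain barrier genes, taken from the study, held 6 negative members (5 with the sheet number term), among them *Gja1*, *Vegfa* and *Aqp4*. With the sheet number term the call was lost, beside the genes for which that value is given, for *Actg1*, *Itgam*, *C1qb*, *Ctss*, *H2-Eb1*, *Fcgr3*, *Laptm5*, *S100a8*, *Tubb3*, *Fos*, *Klf4*, *Baz1a*, *Golga7*, *Rasip1*, *Vcan*, *Npc2*, *Rela*, *Gclm*, *Txnrd1*, *Srxn1*, *Mt1*, *Gsta4*, *Hes5*, *Id3*, *Id4*, *Hoxb2*, *Hoxb4*, *Gpc4*, *Endod1*, *Dtx3l*, *Slc5a3*, *Mylk*, *Adamtsl2*, *Castor1* and *Zcchc12*.

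Levels in the other disease stages of the same experiment, at score 1 (E1) and in the chronic stage (Ech), are given for orientation without a test. In spinal cord *Slc1a2* was at 2515 ± 2103 CPM (SD, n = 5) at E1 and 282 ± 95.4 CPM (n = 6) at Ech, beside 3760.4 ± 665 in controls (n = 5) and 336 ± 182 at E4 (n = 6). In hindbrain it was at 7339 ± 592 and 5819.9 ± 681 CPM (n = 6 each). *Hes1* was at 56.9 ± 51 and 6.23 ± 5.72 CPM in spinal cord at E1 and Ech, and *Lrrc8a* at 163 ± 121 and 33.4 ± 11.8. *Ifit3* was at 303 ± 227 and 202 ± 216 CPM in spinal cord and at 199 ± 80.01 and 68.6 ± 25.4 CPM in hindbrain. At E1 the spread between spinal cord libraries was large relative to the mean for each of these genes, and the group includes 1 library whose title and another label disagree.

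Gene positions are those of the Ensembl annotation of GRCm38. Whether reads were counted by strand is not given in the sources used here, so that genes with a neighbour on the opposite strand may share reads with it. Among genes shown by library this concerns *Slc1a2* (*Gm13872*), *S100b* (*Dip2a*), *Fgfr3* (*G630022F23Rik*), *Slc6a11* (*Gm8132*), *Gfap* (*Gm26668*), *Mt2* (*Gm45774*), *Tnc* (*8030451A03Rik*), *B2m* (*Patl2*), *Timp1* (*Syn1*), *Lrrc8a* (*1700084E18Rik*) and *Aqp4* (*AC133525.2*). On the same strand *Entpd2* overlaps *Npdc1*, *Slc1a3* overlaps *Gm37310*, *Itgam* overlaps *Gm49368* and *Actg1* overlaps *Gm23419* and *Mir6935*.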

How the data were processed

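The 4 groups were taken from the sample labels. The authors made QuantSeq 3′ libraries, aligned reads to GRCm38 with HISAT 0.1.5, counted them per gene with HTSeq 0.6.1p1 and deposited raw counts for 48526 genes, with no library pooled with another and no unmapped column. Here the 66 libraries of the EAE experiment were fitted with edgeR 4.0.16 (R 4.3.3, TMM scaling, quasi-likelihood test, 12 group means), on the 23324 genes with at least 10 counts in total. All 66 libraries share the estimate of spread, and only the 22 libraries enter the contrasts. CPM used the TMM factors, a standard error is the log2 value divided by the root of F, and intervals are 1.96 standard errors to each side. Libraries of up to 2 pooled mice were the replicates, so p-values measure the spread between libraries.

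The genes named were those with the 12 largest differences in each direction among called genes of at least 5 CPM in a group and with a library above 3 counts in every group, the genes of opposite sign, up to 6 called members of each list, and the defining markers and sort genes. The gene lists and the comparison itself were chosen with earlier results of these data known. Genes named outside the rule, after their values were seen, are *Txnrd1*, *Gclm*, *Srxn1*, *Nkx6-2*, *Vcan*, *Npc2*, *Col6a2*, *Hes5*, *Hey1*, *Id3*, *Id4*, *Ifit3*, *Igtp*, *Iigp1*, *Cxcl10*, *H2-K1*, *H2-D1*, *Serpina3n*, *Kcnj10*, *Glul*, *Cd74*, *Hpgd*, *Slc5a3*, *Mylk*, *Adamtsl2*, *Lgals3bp*, *Endod1*, *Dtx3l*, *Lbh*, *Snx10* and *Actb*, and the proteasome genes of the closing section. Deviations from the group mean were correlated between same-numbered libraries of the 2 regions over 10941 genes. By replicate number, r was -0.042 to 0.048 in controls and -0.022 to 0.14 at E4. Other pairs had a median r of 0.0049 in controls and -0.015 at E4, and reached 0.13 and 0.20. At E4, spinal cord replicates 4 and 6 correlated best with the hindbrain library of their own number. Libraries were not paired in the main fit, and whether some share mice was not settled. DESeq2 1.42.0, limma 3.58.1, other scalings and filters, terms for label numbers and leaving out each library were tried as alternatives. Summaries and figures were made in Python 3.11.15 (pandas 2.3.3, matplotlib 3.10.9). Samples of the other experiment and the GLAST-positive groups were not compared here, and 1 gene that counts toward the lists is not reported here.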

Additional observations from a re-analysis of the deposited data

Results flagged for a closer look

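A single library stood apart from the rest of its group in 30 of 176 groups of values examined (Dixon's test at the 95% level, which flags about 1 in 20 by chance). Among summed marker levels, E4 spinal cord replicate 2 stood high for myeloid markers at 5703 CPM and for B cell and neutrophil markers at 536 CPM. In E4 spinal cord a library was also high for endothelial markers, 15.7 CPM. In control spinal cord 1 library each was low for defining astrocyte markers, 12788 CPM, and high for oligodendrocyte markers, 41875 CPM, and granule neuron markers, 19.3 CPM. In control hindbrain single libraries were high for neuron markers, 297 CPM, and for B cell and neutrophil markers, 4.6 CPM, and in E4 hindbrain for T cell markers, 186 CPM.

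Among genes shown by library, E4 spinal cord had a low library for *Slc1a3* (8.95 CPM) and high libraries for *Il17ra* (125 CPM), *Actg1* (2017 CPM), *Itgam* (519.8 CPM) and *Timp1* (6.74 CPM). Control spinal cord had low libraries for *Aqp4* (834 CPM), *Slc6a11* (2682 CPM) and *C4b* (4.96 CPM), and high ones for *Rsad2* (40.7 CPM), *Actg1* (2.87 CPM), *Itgam* (7.44 CPM), *Timp1* (10.2 CPM), *Neurl1b* (1.57 CPM) and *Srxn1* (135 CPM). E4 hindbrain had a low library for *Hes1* (28.2 CPM) and high ones for *A2m* (215 CPM), *Casp1* (27.6 CPM), *Mt2* (10552 CPM), *Actg1* (326 CPM), *Srxn1* (171 CPM) and *Ifit3* (398 CPM).

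For 28 of the 30 genes shown by library the response differed between the regions by edgeR's quasi-likelihood test of the difference itself. Most genes shown were chosen because the difference was called, so this count follows from the choice. Over all genes tested the difference was called for 7.92%. The log2 difference of changes was negative for *A2m* (-3.49), *Agt* (-5.70), *Aqp4* (-3.45), *Atp1b2* (-4.41), *Casp1* (-3.99), *Entpd2* (-6.43), *Fgfr3* (-5.07), *Gfap* (-1.86), *Gja1* (-4.55), *Hes1* (-6.03), *Il17ra* (-2.09), *Lrrc8a* (-2.37), *Mt2* (-2.42), *Rsad2* (-2.42), *Slc1a2* (-3.61), *Slc1a3* (-2.56), *Slc6a11* (-4.69), *Sox9* (-3.38), *Timp1* (-4.67) and *Tnfrsf1a* (-1.54). It was positive for *Actg1* (10.30), *B2m* (1.61), *C4b* (1.62), *Hmox1* (3.39), *Itgam* (4.81), *Neurl1b* (5.99), *Srxn1* (1.02) and *Tnc* (4.75).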

How the results depend on the processing

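Of 448 positive and 1400 negative calls, the counts without 1 library ranged from 292 to 502 and from 1221 to 1473, the lowest positive count being that without control spinal cord replicate 1. Upper-quartile scaling gave 905 positive calls. The sheet number term gave 89 positive and 698 negative, 2106 genes for the spinal cord response and 1 of opposite sign. Spinal cord sheet numbers from 57 gave 73 and 631, 1492 for the spinal cord response and 2210 for the regions at E4. A test against a log2 difference of 1 gave 44 and 757, with 1989 for spinal cord, 98 for hindbrain, 282 between controls, 2702 at E4 and 0 of opposite sign (edgeR's glmTreat). Opposite signs numbered 7 with DESeq2, 7 with no filter beyond 1 count, 14 with the 22 libraries alone and 17 with the bracketed label number as a random block. The hindbrain response was 265 genes with the 22 libraries and 270 with the random block, which also gave 1676 between controls. With the replicate number as a block 1714 genes were called, 374 positive and 1340 negative, and 1661 of the 1848 calls were kept. Signs reversed for *C1qb* (-1.25), *Ctss* (-0.58), *Fbln5* (0.79) and *Itgam* (-0.0088) with libraries of shared bracketed numbers only, which leaves out E4 spinal cord replicate 2, for *Osmr* (-2.88) with the random block, and for *Hes5* (106 CPM) on the linear scale. Apart from these constructions the cause of the changes was not tested. Depth limits low genes such as *Casp1* and *Neurl1b*, whose libraries lay near 3 counts.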

Other observations

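A list of proteasome genes was written after the values had been seen and is described without a test of the list. Proteasomes degrade ubiquitin-tagged proteins, and the 19S particle recognizes and unfolds them for the 20S core. Only subunit genes of at least 5 CPM in a group were counted. Of 20 genes of 19S subunits, 6 had a positive difference of changes (*Psmc1*, *Psmc2*, *Psmc3*, *Psmd2*, *Psmd4* and *Psmd7*) and none a negative one. Among all 12346 genes at that level 379 were positive, and over all genes tested 1.92%. Of the 20, 18 had an estimate above 0, with a median of 0.71. The median was -0.042 over all genes tested, which were not filtered by that level. The median response was 0.97 in spinal cord and 0.21 in hindbrain. *Psmc1* was at 319 ± 87.1 CPM in control (SD, n = 5) and 1127 ± 231 in E4 spinal cord (n = 6), and at 340.4 ± 38.7 and 389 ± 95.7 CPM in hindbrain, with a difference of 1.63 (SE 0.27, adjusted p = 4.6e-06) by edgeR's quasi-likelihood test. *Psmd2* differed by 1.15 (SE 0.27, adjusted p = 0.0021). Of 14 constitutive 20S core genes 1, *Psmb7*, was positive, with a median of 0.66. *Psmb8*, the inducible core subunit, rose in both regions, by 5.96 in hindbrain and 6.23 in spinal cord, with a difference of 0.28 (interval -1.94 to 2.49).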
